A study of Mus musculus with 6 samples.

Results

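The colony-stimulating factors and their receptors were examined through all probes annotated to Csf1, Csf2, Csf3, Csf1r, Csf2ra, Csf2rb or Csf3r. All 7 genes, of 10698 that the annotation names, were on the array. They had 9 of its 16281 probes, 4 for ligands and 5 for receptors, with 2 each for Csf3 and Csf2ra, and 8 of the 9 gave a measured ratio on every array. RNA of untreated RAW 264.7 cells, a mouse macrophage line, was hybridised against RNA of the same line after 1 h with lipopolysaccharide (LPS, from the outer membrane of Gram-negative bacteria) at 100 ng/ml and LPS-binding protein (LBP, a serum protein that delivers LPS to its receptor) at 100 pM. The labels give 1 h for the untreated cells too. Both RNAs lay on every array. On 3 arrays the treated RNA carried Cy5 and on the other 3 it carried Cy3, and each orientation was numbered as sets 1 to 3. The labels also spell the line RAW 264.4. RAW 264.7 is a single line derived from a virus-induced mouse tumour. Nothing in the labels tells whether sets came from separate cultures. The p-values therefore cover just the spread between these samples, and that spread may be technical.

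Colony-stimulating factors are secreted proteins that drive the growth and maturation of myeloid blood cells. Csf1 (M-CSF) acts through Csf1r, a receptor tyrosine kinase that macrophages depend on for survival. Csf2 (GM-CSF) binds a pair of chains, the ligand-specific Csf2ra and the shared signalling chain Csf2rb, and Csf3 (G-CSF) acts through Csf3r, best known on neutrophils and their precursors. Activated macrophages are a known source of Csf2 and Csf3.

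Values are log2 ratios of treated over untreated RNA, so that 1 is a doubling. Ratios of the arrays that carried treated RNA in Cy3 were turned (times -1), an exact 0 was read as no measured ratio, and the arrays of a set were averaged, so that means and SDs are over n = 3 sets. Beyond their orientation, the ratios of arrays sharing a set number showed no clear positive correlation (r = 0.0056, -0.258 and -0.0636 for sets 1, 2 and 3). Both arrays of set 2 did share a high share of exact zeros, 17.7% and 23.9%, against 8.99% to 12.1% on the others. For complete probes the means do not depend on which arrays share a number, but SDs over sets, intervals and adjusted p do. The n = 3 sets are therefore not shown to be matched replicates. The sign rests on Cy5 being the numerator, which is likely because the labels name the Cy5 RNA the test RNA. With Cy3 as the numerator every sign would turn. Ratios hold no level, so the abundance of ligand and receptor transcripts and the identity of the cells could not be read from them. A probe was called when limma's adjusted p over all 11442 complete probes was under 0.05.

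Of the 8 complete probes 2 were called, the first probe of Csf3 upward and that of Csf3r downward, while 12.5% of all complete probes were called, 6.85% upward and 5.63% downward. A count out of 8 is too small to set the family apart from the array as a whole. Csf3 ranked 23 of the 11442 probes by size of its rise. The ratios of the other 7 complete probes averaged between -0.17 and 0.16.

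**Figure D1:**
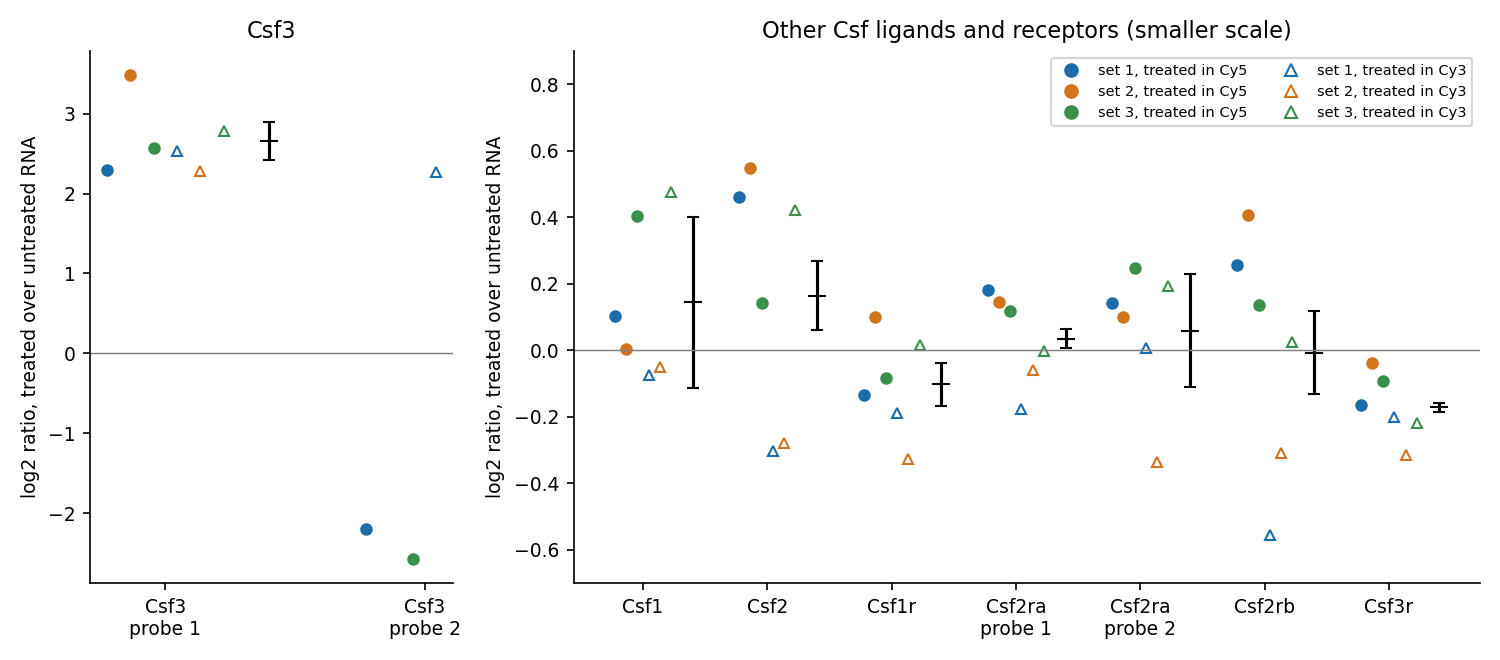
Log2 ratio of treated over untreated RNA (vertical axis) for each Csf probe on each array, with the Csf3 probes on a larger scale at the left. Filled circles are arrays with treated RNA in Cy5 and open triangles those with treated RNA in Cy3, colours mark the sets, and black bars give the mean ± SD over 3 set averages. Csf3 probe 1 lies between 2.28 and 3.48 on all arrays, the 3 measured ratios of Csf3 probe 2 split by dye, and Csf3r is the only other complete probe on one side of 0 throughout.

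Csf3, the granulocyte growth factor, rose in treated cells. With treated RNA in Cy5 its first probe (probe 6317) was at 2.30, 3.48 and 2.57 in sets 1, 2 and 3, and with treated RNA in Cy3 it was at 2.53, 2.28 and 2.78. All 6 arrays were far above 0, the array of set 2 with treated RNA in Cy5 was highest, and the orientations overlapped. The mean was 2.66 ± 0.24 (SD, n = 3 sets; limma, adjusted p = 2.49e-05), or 6.31-fold. Ratios above 0 on all 6 arrays were found for 10.1% of complete probes. Among 8331 genes Csf3 ranked 12.

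The other Csf3 probe (probe 18418), annotated to the same transcript record, did not show this. It had a ratio on 3 arrays, at -2.20 and -2.57 in sets 1 and 3 when Cy5 marked the treated RNA and at 2.27 in set 1 with treated RNA in Cy3, and was listed at 0 on the others. As deposited, before any sign was turned, these ratios were -2.20, -2.57 and -2.27, a mean of -2.35 ± 0.20 (SD, 3 arrays). All measured arrays therefore had less Cy5 than Cy3 signal, whichever RNA carried the Cy5. In a fit that kept incomplete probes its treatment average was -1.27 over 2 sets (limma, adjusted p = 0.425) and its dye average -2.40 (adjusted p = 0.0728). Set 3 entered that fit by its Cy5 array alone, so dye and treatment were not separated there. Set 1, measured in both orientations, had a treatment average of 0.04.

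On the 3 arrays that measured both probes, probe 1 was higher by 4.50, 5.14 and 0.25 for set 1 in Cy5, set 3 in Cy5 and set 1 in Cy3. The probes were thus close on the array with treated RNA in Cy3 and opposite on both arrays of the other orientation. The mean difference was 3.30 ± 2.66 (SD, 3 arrays; exact two-sided sign-flip permutation p = 0.25, the smallest that 3 arrays allow). Averaged over both probes, Csf3 would be at 1.83 with incomplete probes kept (limma, adjusted p = 0.0585) and at 1.12 with zeros read as ratios (adjusted p = 0.0741). The Csf3 rise therefore rests on probe 1. That probe passed under every alternative tried, with averages between 2.53 (treated RNA in Cy3 alone) and 2.78.

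Large deposited ratios of one sign in both orientations were uncommon and sat mainly among incomplete probes. A deposited mean of at least 2 in size with one sign on every measured array was found for 7 complete probes (0.0612%) and for 68 (1.96%) of 3476 incomplete probes measured in both orientations. The second Csf3 probe was one of these 68. An incomplete probe had to hold its sign on fewer arrays than a complete one, so the 2 shares are not on equal terms.

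**Figure D2:**
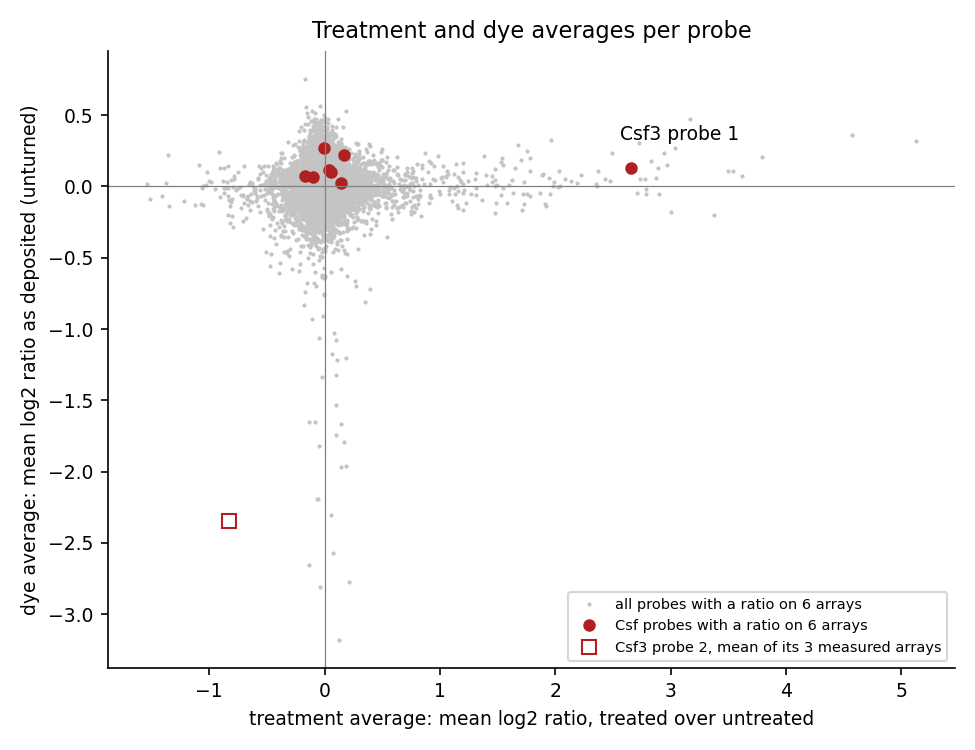
Each point is a probe, with its treatment average (mean log2 ratio of treated over untreated RNA, horizontal axis) against its dye average (mean log2 ratio as deposited, vertical axis). Red circles are the complete Csf probes, of which Csf3 probe 1 lies at 2.66 and 0.13, and the open square is Csf3 probe 2 at -0.83 and -2.35, the means of its 3 measured arrays.

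Csf2, the granulocyte and macrophage growth factor, was not called. Its probe was at 0.46, 0.55 and 0.14 when Cy5 marked the treated RNA and at -0.30, -0.28 and 0.42 with treated RNA in Cy3 (sets 1, 2 and 3). Sets 1 and 2 thus had opposite signs in the 2 orientations, and set 3 was above 0 in both. The mean was 0.16 ± 0.10 (SD, n = 3 sets; limma, adjusted p = 0.113), with a 95% interval of 0.03 to 0.30. That interval lies far below the rise of Csf3. It is narrow because opposite signs were averaged within sets 1 and 2, and the SD over the 6 single arrays was 0.38. With 6 single arrays, a dye term and no replicate block, limma gave an adjusted p of 0.372. By orientation the mean was 0.38 ± 0.21 for Cy5 and -0.05 ± 0.41 for Cy3 (SD, 3 arrays each).

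Csf1, the macrophage growth factor, was not called either, and its ratios were highest on the arrays numbered set 3. Whether the set itself made this difference was not tested. In set 3 it was at 0.40 with treated RNA in Cy5 and 0.47 in Cy3, in set 1 at 0.10 and -0.07, and in set 2 at 0.0031 and -0.05. Only the arrays of set 3 stood clearly above 0. The mean was 0.14 ± 0.26 (SD, n = 3 sets; limma, adjusted p = 0.397; 95% interval -0.09 to 0.38), and without set 3 it was -0.0043.

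Among the receptors, Csf3r was the one called. It was at -0.16, -0.04 and -0.09 when Cy5 marked the treated RNA and at -0.20, -0.31 and -0.22 with treated RNA in Cy3, below 0 on all 6 arrays. Of all complete probes, 8.87% were below 0 throughout. Csf3r fell by 0.17 ± 0.01 (SD, n = 3 sets; limma, adjusted p = 0.047), a 1.13-fold difference. Its SD over sets was far smaller than the 0.10 over the 6 single arrays and the 0.06 within either orientation. In set 2 the smallest fall in Cy5 met the largest in Cy3. In set 1 the largest fall in Cy5 met the smallest in Cy3. This low SD depends on which arrays share a number, and the ratios gave no sign of pairing by number. The call was lost without set 1, 2 or 3 (adjusted p = 0.222, 0.154 and 0.091), with either orientation alone (0.285 for Cy5 and 0.0811 for Cy3), with incomplete probes kept (0.111), after quantile normalization (0.056) and with the set as replicate block (0.0574). It held with 6 single arrays and no block (0.0191) and with zeros kept (0.045), so it lay at the edge of the threshold.

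Csf1r, the M-CSF receptor, averaged -0.10 ± 0.06 (SD, n = 3 sets; limma, adjusted p = 0.224; 95% interval -0.22 to 0.01). Its ratios were -0.13, 0.10 and -0.08 when Cy5 marked the treated RNA and -0.19, -0.33 and 0.02 with treated RNA in Cy3, so 4 arrays were below 0 and 2 above. The annotation also held a probe of the pseudogene Csf1r-ps, which averaged -0.05 ± 0.11 (adjusted p = 0.649). Whether the probes tell gene and pseudogene apart was not tested.

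Csf2ra, the ligand-specific chain of the GM-CSF receptor, had 2 complete probes that gave like averages, 0.03 ± 0.03 for probe 440 and 0.06 ± 0.17 for probe 7418 (SD, n = 3 sets; limma, adjusted p = 0.654 and 0.646). The first was at 0.18, 0.15 and 0.12 when Cy5 marked the treated RNA and at -0.18, -0.06 and -0.0013 with treated RNA in Cy3, so its sign followed the dye on every array. The second was at 0.14, 0.10 and 0.25 when Cy5 marked the treated RNA and at 0.0075, -0.33 and 0.19 with treated RNA in Cy3, with only set 2 in Cy3 below 0. Within arrays the probes differed by -0.02 ± 0.18 (SD, 6 arrays), first minus second, with the first higher on 3 of 6 (exact two-sided sign-flip permutation p = 0.75). The SD of that difference exceeded either average.

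Csf2rb, the shared signalling chain, averaged -0.0070 ± 0.12 (SD, n = 3 sets; limma, adjusted p = 0.953; 95% interval -0.15 to 0.14). The average hid opposite orientations. With treated RNA in Cy5 it was at 0.26, 0.41 and 0.13, and with treated RNA in Cy3 at -0.56, -0.31 and 0.02, so the orientations did not overlap. Csf2rb2, the paralogous beta chain that serves the IL-3 receptor, averaged -0.08 ± 0.07 on its complete probe (adjusted p = 0.351). The paralogs are near copies, and whether the probes tell them apart was not tested.

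The dye averages were above 0 for all 8 complete Csf probes, against 49.4% of all complete probes. They ran from 0.03 for Csf1 to 0.27 for Csf2rb, and 0 of the 8 passed limma's test of the dye average, at an adjusted p from 0.147 to 0.656. Before adjustment 2 of the 8, Csf2rb and Csf2ra probe 440, were under the threshold of 0.05 in that test. Of all complete probes 0.0524% passed the adjusted test. Averaged over the Cy3 orientation alone, Csf2 and both Csf2ra probes were negative, and over the Cy5 orientation alone Csf2rb was positive, each the opposite of its average over both. Their averages thus depended on holding both orientations.

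Ratios of ligand and receptor were next compared within each array, for 4 pairs. Csf3 exceeded Csf3r by 2.46, 3.52 and 2.66 when Cy5 marked the treated RNA and by 2.73, 2.60 and 3.00 with treated RNA in Cy3, so ligand and receptor were far apart on all arrays by the first Csf3 probe, the one complete probe of that gene. The mean difference was 2.83 ± 0.23 (SD, n = 3 sets). With the second Csf3 probe averaged in, it was 2.00 with incomplete probes kept and 1.29 with zeros read as ratios, and on the Cy5 arrays of sets 1 and 3 that second probe lay below Csf3r. Csf1 exceeded Csf1r by 0.25 ± 0.20 and was higher on 5 of 6 arrays, the exception being set 2 in Cy5 at -0.10. Csf2 exceeded Csf2rb by 0.17 ± 0.08 and was higher on 6 of 6 arrays, by 0.0059 to 0.40. Against Csf2ra it differed by 0.12 ± 0.07 and was higher on 3 of 6.

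Over the 6 arrays, an exact two-sided sign-flip permutation gave p = 0.0312 for Csf3 with Csf3r and for Csf2 with Csf2rb, the smallest it can give. The same exact permutation gave p = 0.0625 for Csf1 with Csf1r and p = 0.344 for Csf2 with Csf2ra. Benjamini-Hochberg adjustment over the 4 pairs gave 0.0625, 0.0625, 0.0833 and 0.344, so none passed. Over 3 set averages every pair had the permutation p of 0.25 that is the smallest possible. The Csf3 difference by its first probe was far above its SD over 6 arrays of 0.38. The other differences were of the order of theirs, at 0.22 for Csf1 with Csf1r, 0.26 for Csf2 with Csf2ra and 0.15 for Csf2 with Csf2rb.

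**Figure D3:**
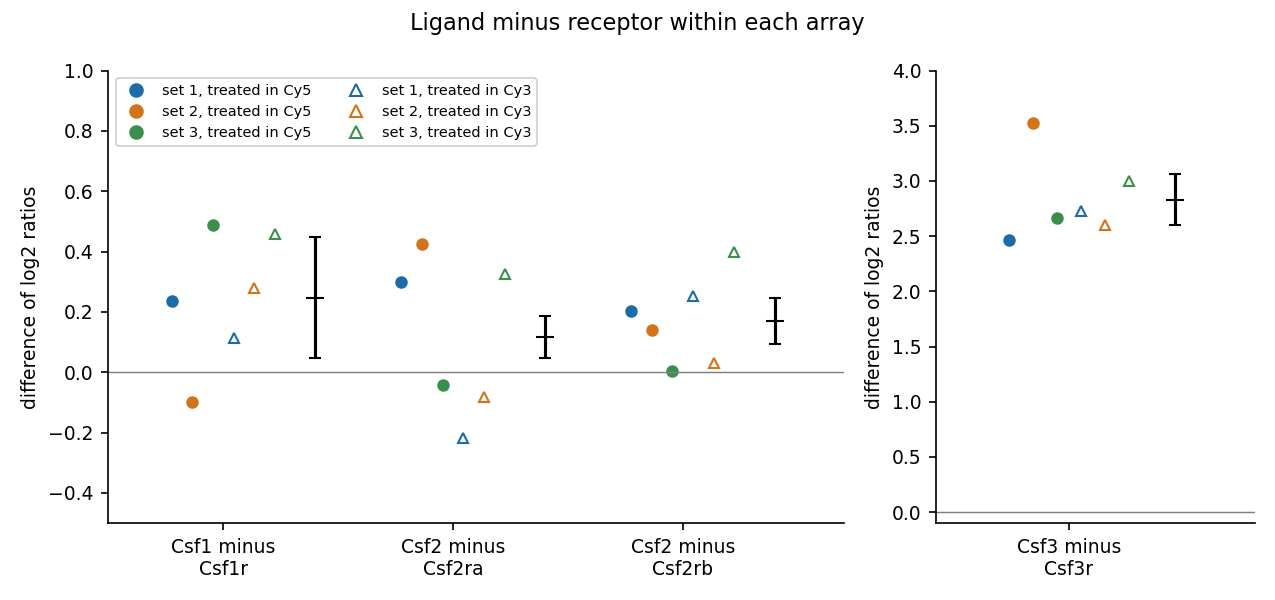
Difference of log2 ratios, ligand minus receptor, within each array (vertical axis) for 4 pairs, with Csf3 minus Csf3r on its own scale at the right. Symbols and colours mark dye orientation and set, and black bars the mean ± SD over 3 set averages. Csf3 minus Csf3r lies between 2.46 and 3.52, and Csf2 minus Csf2ra has points on both sides of 0.

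By Euclidean distance over the 6 turned ratios, the genes most like Csf3 probe 1 among 9960 complete probes with 1 symbol were Traf1, a signalling adaptor (distance 0.72), Ifit3, an interferon-induced gene (0.90), and Tnf, the tumour necrosis factor gene (0.95), with averages of 2.71, 2.90 and 2.49 on those probes. Those nearest to Csf3r were Plekhb2 (0.07), Pygo2 (0.08) and 5430401F13Rik (0.10), each at an average of -0.18. The distance mostly tracks size, so it describes a like ratio and no more.

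Promoter windows were searched for 4 of the 7 genes, Csf1, Csf2, Csf2ra and Csf3r, in a RefSeq table of GRCm38.p6. Csf3 and Csf2rb had no entry there, and Csf1r was left out of the search, so its motifs are not known here. The windows of Csf1, Csf2 and Csf3r are shown so that ligands that were not called stand beside the receptor that was. Each run is the 250 bases before the annotated start, 5′ to 3′ on the strand of the gene, with capitals for matches on either strand to the kappaB consensus, to the PU box bound by the myeloid factor PU.1 (GAGGAA) or to the AP-1 site (TGANTCA). They lie at chr3:107760470-107760719 (minus strand) for Csf1, chr11:54249900-54250149 (minus strand) for Csf2 and chr4:126024409-126024658 (plus strand) for Csf3r.
Csf1: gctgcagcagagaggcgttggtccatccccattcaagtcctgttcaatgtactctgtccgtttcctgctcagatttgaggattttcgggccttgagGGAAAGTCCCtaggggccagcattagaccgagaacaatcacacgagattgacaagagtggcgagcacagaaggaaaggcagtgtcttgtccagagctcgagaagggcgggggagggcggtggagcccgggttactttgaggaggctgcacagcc
Csf2: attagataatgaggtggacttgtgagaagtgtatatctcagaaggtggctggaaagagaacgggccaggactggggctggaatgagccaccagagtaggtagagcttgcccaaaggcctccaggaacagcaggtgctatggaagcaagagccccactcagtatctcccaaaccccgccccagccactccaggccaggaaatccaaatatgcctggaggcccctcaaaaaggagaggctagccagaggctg
Csf3r: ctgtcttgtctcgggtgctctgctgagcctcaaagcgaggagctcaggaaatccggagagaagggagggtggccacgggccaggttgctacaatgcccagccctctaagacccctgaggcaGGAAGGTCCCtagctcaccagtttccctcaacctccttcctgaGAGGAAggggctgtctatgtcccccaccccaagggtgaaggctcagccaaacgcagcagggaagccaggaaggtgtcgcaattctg

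Csf1 held 1 kappaB match, 154 to 145 bases before the start, and no other motif. Csf3r held 1 kappaB match at 129 to 120 bases and 1 PU box at 86 to 81 bases. The Csf2ra window held 2 adjoining PU boxes within 14 bases of the start, and none of the 3 motifs was found in the Csf2 window. Among 32851 promoters of the table, 7.25% held the kappaB consensus, 23.3% the PU box and 6.75% the AP-1 site in the same length. None of these motifs overlapped another in the windows shown. A match describes letters only, and the windows of a called and an uncalled gene both held the kappaB consensus.

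Other genes of the pathway came from lists, tested as averages of a gene's complete probes over 8331 genes, of which 13.2% were called, with a median of -0.0092. Of the 23 called genes named from the lists, 9 were also called in each of 8 other fits (zeros kept, incomplete probes kept, single arrays, either orientation alone, or any one set left out). These were Dok1, Pdgfb, Egr1, Egr2, Fosl1, Zfp36, Zfp36l1, Cybb and Adgre1. Among genes that act downstream of the receptors, 3 of 35 rose and 3 fell (17.1% called, median 0.05). The rises were Stat3 (0.24 ± 0.07), a transcription factor of cytokine receptors, the kinase gene Akt2 (0.24 ± 0.09) and Cish (0.19 ± 0.08), a feedback inhibitor. The falls were Dok1 (-0.98 ± 0.15, adjusted p = 0.000262), an adaptor that restrains tyrosine kinase signalling, Sla (-0.32 ± 0.11), an adaptor that promotes receptor turnover, and the kinase gene Fes (-0.26 ± 0.09). Dok1 alone of the 6 passed with each set left out. Stat3 (adjusted p from 0.0535 to 0.0718), Akt2 (0.0592 to 0.0883) and Cish (0.0857 to 0.144) failed with any one set left out, Sla failed without set 1 (adjusted p = 0.0578), and Fes failed without set 1 (0.149) and set 3 (0.0759). All of these 5 also lost their call with zeros kept and with incomplete probes kept, and each in one orientation. Stat3 was at 0.14 (adjusted p = 0.228) and Cish at 0.03 (0.863) for the Cy3 orientation, and Akt2 at -0.03 (0.858) and Fes at -0.17 (0.167) for the Cy5 orientation. Sla was at -0.23 (0.124) for the Cy3 orientation and at -0.16 (0.106) with zeros kept. The kinase gene Jak2 (0.12 ± 0.05) and the transcription factor genes Stat5a (-0.06 ± 0.08) and Stat5b (-0.09 ± 0.03), which carry GM-CSF signals, were not called.

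Of related growth factors 2 of 15 rose and 1 fell (20% called, median 0.03). Pdgfb, a platelet-derived growth factor chain, rose by 1.06 ± 0.07 and Lif, the leukaemia inhibitory factor, by 0.35 ± 0.05, the latter without a call when incomplete probes were kept (0.24, adjusted p = 0.0814) or for the Cy3 orientation (adjusted p = 0.0971), and at 0.19 with zeros kept (adjusted p = 0.0448). Il34, the other known ligand of Csf1r, fell by 0.21 ± 0.07 (adjusted p = 0.0308), but not with set 1, 2 or 3 left out (adjusted p = 0.0935, 0.0892 and 0.1) and only to -0.04 with treated RNA in Cy3 alone (0.763). It also lost its call with zeros kept (0.0832) and incomplete probes kept (0.0849). Il3 (-0.01 ± 0.04) and Il5 (0.11 ± 0.06), whose receptors share the beta chain of GM-CSF, were not called. Of related receptors 1 of 12 rose and 1 fell (16.7% called, median -0.03). Crlf2, the TSLP receptor chain, rose by 0.29 ± 0.03, not passing without set 1 (adjusted p = 0.0661). Lifr fell by 0.23 ± 0.04 on its complete probe and failed without set 1 (0.116), without set 2 (0.0556) and for the Cy3 orientation (0.155). It averaged -0.0056 with its incomplete probe kept (adjusted p = 0.962) and 0.02 with zeros kept (0.864).

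Transcription factors known to act at these genes were called more often, 12 of 23 upward and 1 downward (56.5%, median 0.45). They were picked with earlier results of these data known, so the count is no independent support. The largest rises were the immediate early genes Egr1 (5.13 ± 0.16) and Egr2 (3.79 ± 0.25) and the AP-1 subunit gene Fosl1 (1.54 ± 0.14), and Fos fell by 0.25 ± 0.04 but failed without set 1 (adjusted p = 0.0704) and for the Cy3 orientation (0.14). Spi1, which encodes PU.1, averaged 0.19 ± 0.12 and was not called. For proteins that bind AU-rich mRNAs such as those of Csf2 and Csf3, 3 of 11 genes rose and 0 fell (27.3%, median 0.04). Zfp36, which promotes decay, rose by 2.14 ± 0.13, its relative Zfp36l1 by 0.60 ± 0.10 and Elavl1, which stabilises mRNAs, by 0.18 ± 0.04, the last without a call with set 1, 2 or 3 left out (adjusted p = 0.161, 0.0812 and 0.112), with zeros kept (0.0639) or with incomplete probes kept (0.0887). For the Cy3 orientation Elavl1 was at 0.08 (adjusted p = 0.491). Zfp36l1 was at 0.34 with zeros kept, still called (adjusted p = 0.0383).

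**Figure D4:**
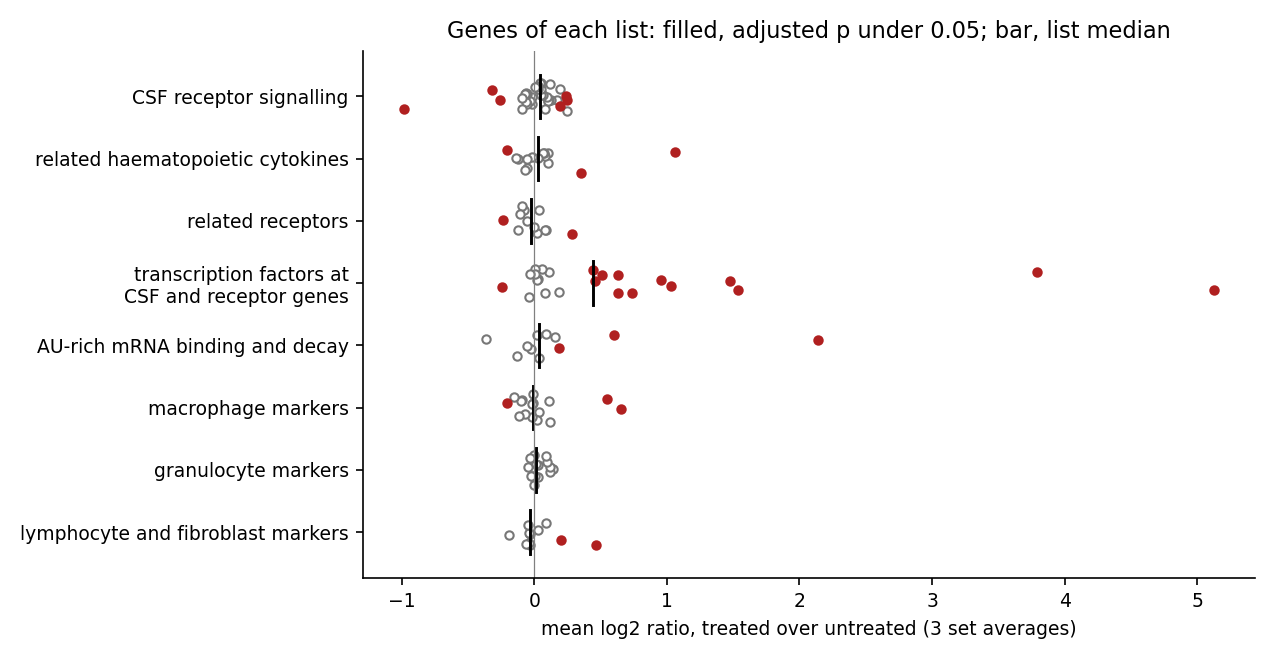
Mean log2 ratio of treated over untreated RNA (horizontal axis, 3 set averages) for the tested genes of 8 lists, with filled points for genes called and black bars for list medians. Medians lie near 0 except for the transcription factors, at 0.45, and the granulocyte markers hold no called gene.

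Marker genes gave the ratios beside which the receptors can be read. Of 16 macrophage markers 2 rose, Cybb (0.65 ± 0.16) and Adgre1 (0.55 ± 0.11), and 1 fell, Fcgr3 (-0.21 ± 0.10), which failed without set 1 (adjusted p = 0.19) and without set 3 (0.135), with zeros kept (0.129), with incomplete probes kept (0.115) and for either orientation (0.0509 for Cy5 and 0.204 for Cy3). Of the list 18.8% were called, with a median of -0.01. Granulocyte markers, whose cells carry Csf3r, had 0 of 15 called by limma (median 0.01, range -0.05 to 0.14), and 3 were under 0.05 before adjustment. Of 11 lymphocyte and fibroblast markers Cd4 rose by 0.47 ± 0.21 and Cd79a by 0.20 ± 0.06 (18.2% called, median -0.04). Cd4 failed without set 1 (adjusted p = 0.052) and was at 0.35 with incomplete probes kept (0.207), 0.14 with zeros kept (0.196) and 0.30 for the Cy3 orientation (0.174). Cd79a failed without any one set (0.102, 0.0972 and 0.11), with zeros kept (0.0853), with incomplete probes kept (0.0905) and for either orientation (0.0842 for Cy5 and 0.222 for Cy3). The part of these markers in the Csf ratios was not tested.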

How the data were processed

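Total RNA was measured on 6 dual-channel arrays. The authors deposited 1 log2 ratio of its channels per probe and array: between 99.9652% and 99.993% of non-zero values per array equal a log10 number of 6 digits divided by log10 of 2. Scanner, background correction and normalization are not given in the sources used here. Medians of measured ratios ran from 0.0043 to 0.0159, so arrays were centred near 0 by a step that is unknown, and the direction is unstated. Exact zeros made up 8.99% to 23.9% of an array, with the highest shares on both arrays of set 2. No intensities were used, so the number of arrays limits the precision.

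Ratios with treated RNA in Cy3 were turned, averaged per set and tested against 0 with limma 3.58.1 in R 4.3.3 (lmFit, eBayes, two-sided, 2 residual and 3.99 prior degrees of freedom for probes). Benjamini-Hochberg adjustment ran over all complete probes or all genes. The fit was tested on simulated data with 200 changed probes of 11442. True log2 changes of 0.5, 1, 2 and -1 were recovered for 62%, 96%, 100% and 94% of probes, with 7 false calls. Changes as small as the averages of the uncalled Csf probes were not simulated. All 9 probes matched RefSeq symbols by gene identifier. Named genes were all members, up to 3 called genes per list and direction, and the 3 genes nearest to each called member; others in the text were named after their values were seen. Members and lists were chosen with earlier results of these data known. Alternatives covered zeros, incomplete probes, orientation, replication, centring, normalization and left-out sets.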

Additional observations from a re-analysis of the deposited data

How the results depend on the processing

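The count of called Csf probes was 2 as reported and 1, Csf3 alone, with incomplete probes kept, with either orientation alone, with the set as replicate block, after quantile normalization and with any one set left out (1 to 1). Averaged by gene it was 2 as reported, 0 with zeros kept or incomplete probes kept, 1 with either orientation alone or the replicate block, and 1 to 1 with a set left out. After subtracting each orientation's mean, same-numbered arrays correlated at r = 0.0056, -0.258 and -0.0636 over complete probes. Their ratios thus gave no sign of pairing by number. The replicate block, fitted as a paired alternative, is given for completeness. The replicate block gave 1727 called probes of all against 1428 as reported. That total was 522 with zeros kept, 854 with incomplete probes kept, 837 with treated RNA in Cy3 alone and 621 to 1245 with a set left out. Fits without a set have fewer averages. Called genes over all lists numbered 32, and 19 with zeros kept, 21 with Cy3 alone and 18 to 26 with a set left out.

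Signs turned for probes that were not called. With treated RNA in Cy3 alone, Csf2 was at -0.054, Csf2ra at -0.079 (probe 440), -0.044 (probe 7418) and -0.062 (gene), and with Cy5 alone Csf2rb was at 0.27. With a set left out, Csf1 ran from -0.0043 to 0.23, Csf2ra probe 7418 from -0.022 to 0.15 and Csf2rb from -0.050 to 0.064. The dye average of Csf3 probe 1 was -0.18 after quantile normalization and -0.11 to 0.25 with a set left out, that of Csf1 ran from -0.0044 to 0.058 and that of Csf1r from -0.011 to 0.12.

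Csf3 minus Csf3r was 1.29 with zeros kept and 2.00 with incomplete probes kept, where the second Csf3 probe enters the average. Csf2 minus Csf2ra was 0.23 with Cy5 alone and 0.0080 with Cy3 alone. The difference between Csf3 probes was 0.25 with Cy3 alone, which is 1 array. Fits on 6 single arrays leave these differences as they are by construction, and no member has enough probes for the median of probes to differ from their mean.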
